A study of Homo sapiens with 4 samples.

Results

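The genes described here encode the nuclear pore and the machinery that carries cargo through it: nucleoporins, importins, exportins and the Ran system. They were chosen as a fixed list of 50 symbols, and all 50 were found among the 23622 genes of the deposited table. By role, 28 are subunits of the pore, 18 are transport receptors and 4 belong to the Ran system. The nuclear pore complex is a ring-shaped channel across the nuclear envelope, built from stacked rings of scaffold proteins around a central channel whose proteins carry phenylalanine-glycine (FG) repeats. Small molecules pass freely, whereas larger cargo is carried by receptors: importins bind it in the cytoplasm and exportins bind it in the nucleus. The GTPase Ran gives transport its direction, since Ran bound to GTP is kept high in the nucleus, where it releases import cargo and joins export complexes. In acute myeloid leukemia, chromosome fusions can involve NUP98 and NUP214, and XPO1 is a drug target.

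RNA was sequenced from MV4-11, a human acute myeloid leukemia cell line with a KMT2A rearrangement, in 2 groups of 2 libraries. The sh-IRF1 cells carried a lentiviral short hairpin RNA against IRF1, an interferon-responsive transcription factor, and the sh-NC cells are the controls, which the sample labels describe as wild type without treatment and the study names as cells with a control hairpin. Both groups share the MV4-11 background, the study selected its lentivirus-infected cells with puromycin, and the sources used here do not say which hairpin each sh-IRF1 library carried. No source says that the 2 libraries of a group came from separate cultures, so the p-values measure only the spread between these libraries, which may be technical.

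The authors deposited, for each gene and library, the number of reads divided by 1 size factor per library, called the normalized count below. The reads behind the values could be recovered and came to between 17635908 and 18695337 per library. Fold changes compare sh-IRF1 with sh-NC on log2(normalized count + 1), which makes the change of a gene with few reads look smaller than it is. The limma test covered the 14120 genes that reached 10 normalized counts in 2 or more libraries, and a gene is called higher or lower where its p, adjusted over all genes tested by the Benjamini-Hochberg method, was under 0.05. An exact two-sided permutation test of 2 libraries against 2 cannot give a p below 0.333, so every call depends on limma's estimate of the spread over all genes together. IRF1 itself had 785 and 738 normalized counts in sh-NC and 429.7 and 432 in sh-IRF1, which is 56.6% of its mean in the controls (log2 fold change -0.82, standard error 0.0904, adjusted p = 1.69e-10 from limma). Of 12 markers of myeloid cells, 11 had a normalized count of at least 10 in every library, 6 were called lower and 3 higher, and the markers summed to 33627 to 33628 normalized counts in sh-NC and 29239 to 29404 in sh-IRF1. Of 14 genes listed as markers of other cell types, 7 were analysed here, and those summed to 2542 to 2768 in sh-NC and 4709 to 4735 in sh-IRF1, with PECAM1 and CD79A called higher. Most of that rise was PECAM1 alone, at 1159 and 1399 in sh-NC and 3178 and 3120 in sh-IRF1. The sum is therefore not read as a measure of other cells. The part of these shifts in the values below was not tested. In RNA from many cells together, fewer cells of a type and less RNA per cell cannot be told apart.

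Most of the transport genes were lower in the sh-IRF1 libraries, by a modest amount. Of the 50 genes, 49 passed the filter on low values, and 29 of these were called lower and 7 higher, whereas 13 had no call. Over all genes tested, 21.9% were called lower and 20.3% were called higher. The transport genes are abundant, and among genes with a mean of at least 1000 normalized counts the background is larger, with 38.6% called lower and 28.1% called higher. Of the 44 transport genes at that level, 26 were called lower and 7 higher. In 34 of the 49 genes both sh-IRF1 libraries lay below both sh-NC libraries, and in 9 both lay above, against 35.0% and 34.2% of all genes tested. The median log2 fold change was -0.19 over the 49 genes and -0.0019 over all genes tested. The changes were small in size, since only NUP54 fell and only NUP210 rose beyond a log2 fold change of 0.5 with an adjusted p under 0.05 from limma, which 7.56% of all genes did downwards and 8.27% upwards.

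Split by role, genes called lower were found in every role, and genes called higher in the pore and among the receptors. Among the 28 pore subunits, 13 were called lower (46.4%), 5 were called higher (17.9%) and 10 had no call. Among the 17 receptors tested, 12 were called lower (70.6%), 2 higher and 3 had no call. All 4 genes of the Ran system were called lower. At a mean of at least 1000 normalized counts, 10 of 23 pore subunits were called lower and 5 higher, near the background of 38.6% and 28.1% at that level, so the pore counts alone do not set these genes apart. The same counts were 12 lower and 2 higher of 17 receptors, and 4 lower of 4 genes of the Ran system. The median log2 fold change was -0.14 for the pore, -0.25 for the receptors and -0.25 for the Ran system. The difference between the shares of the roles was not tested, because genes are not replicates of a condition. In the plot of changes by role, the pore genes run from -0.88 to 0.54, while the exportins and the Ran system lie wholly to the left of 0.

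**Figure D1:**
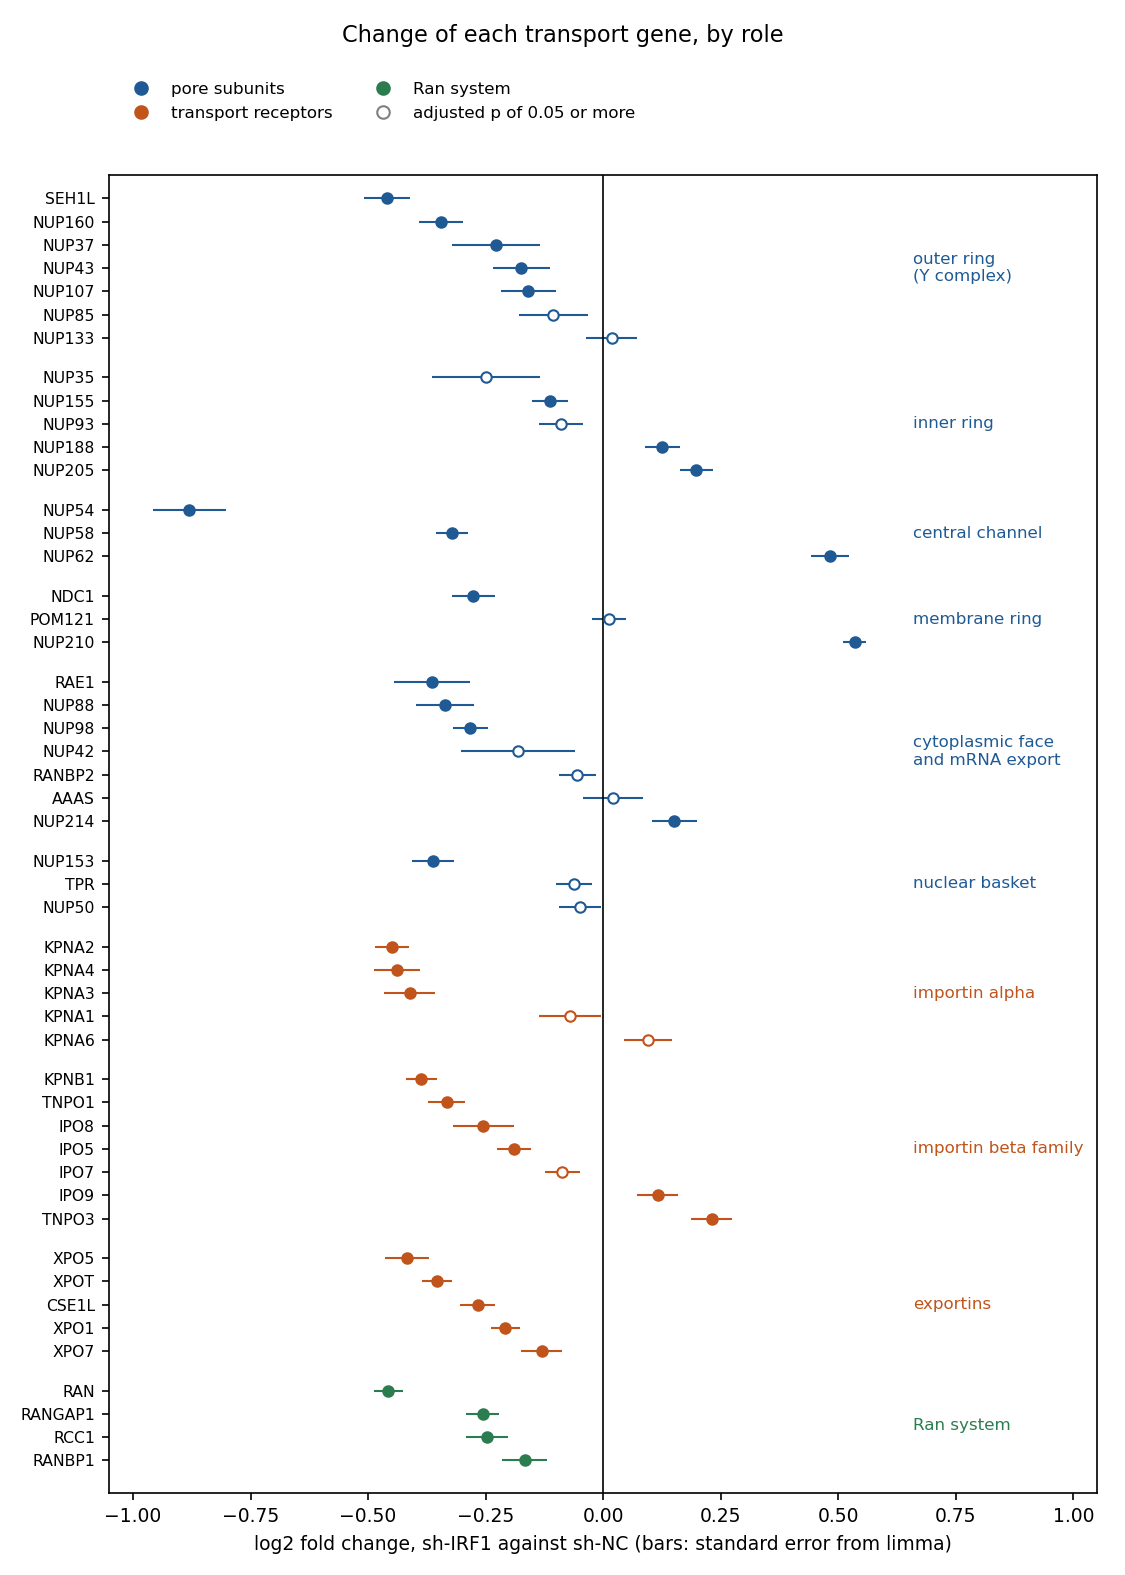
Log2 fold change, sh-IRF1 relative to sh-NC, for the 49 transport genes tested, grouped by role and subgroup. Points are limma estimates, bars are standard errors, and open circles mark genes with an adjusted p of 0.05 or more. NUP54 is the lowest point at -0.88 and NUP210 the highest at 0.54.

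Promoter sequence is printed for 4 genes: NUP54 and NUP210 as the lowest and the highest of the transport genes, RAN as the gene with the highest level per length, and NUP160 as the only transport gene whose promoter window held the interferon regulatory factor element searched for. The sequences come from RefSeq on GRCh38.p14 and run 5′ to 3′ on the strand of the gene. Each starts 250 bases before the RefSeq start site and stops before any base that an annotated transcript covers. Capitals mark the motifs found, and positions count back from the start site. NUP54 lies at chr4:76148486-76148647 on the minus strand, with the ETS core CCGGAAG at -171 and its reverse complement at -110. NUP210 lies at chr3:13420323-13420572 on the minus strand and held none of the motifs searched for. RAN lies at chr12:130871816-130872036 on the plus strand, with the E-box CACGTG at -102. NUP160 lies at chr11:47848556-47848794 on the minus strand, with the interferon regulatory factor element at -89. The ETS core was also found for NUP160, outside the bases printed.
NUP54: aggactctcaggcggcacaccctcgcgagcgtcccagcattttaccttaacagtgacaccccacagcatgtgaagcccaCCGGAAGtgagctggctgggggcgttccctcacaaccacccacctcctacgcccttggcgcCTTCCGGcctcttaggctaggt
NUP210: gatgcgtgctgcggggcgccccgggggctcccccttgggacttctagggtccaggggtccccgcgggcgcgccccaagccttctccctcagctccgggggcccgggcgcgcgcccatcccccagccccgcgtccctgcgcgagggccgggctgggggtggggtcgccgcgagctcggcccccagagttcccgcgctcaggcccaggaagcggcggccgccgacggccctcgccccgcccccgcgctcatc
RAN: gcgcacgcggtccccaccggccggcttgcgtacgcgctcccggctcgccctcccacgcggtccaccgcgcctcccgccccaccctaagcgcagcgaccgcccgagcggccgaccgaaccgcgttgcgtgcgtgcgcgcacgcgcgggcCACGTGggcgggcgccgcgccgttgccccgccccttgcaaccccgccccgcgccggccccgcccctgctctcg
NUP160: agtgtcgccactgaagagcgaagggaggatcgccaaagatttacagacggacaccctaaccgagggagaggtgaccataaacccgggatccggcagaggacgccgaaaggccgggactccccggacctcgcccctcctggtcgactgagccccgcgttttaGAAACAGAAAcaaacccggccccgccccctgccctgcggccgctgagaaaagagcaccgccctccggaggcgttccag

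RefSeq promoter windows, from 250 bases before to 50 bases after each start, were matched for 45 of the 50 genes and searched on both strands for 5 motifs, none of which contains another. The E-box CACGTG, which MYC and related factors can bind, was found in 8 transport genes (17.8% of those matched): IPO4, IPO7, KPNA3, NUP188, NUP50, RAN, RCC1 and XPO1. It was found in 12.7% of all genes tested and 7.26% of all windows. The interferon regulatory factor element, searched as GAAA, any 2 bases and GAAA again, was found in NUP160 alone (2.22%), against 3.998% of genes tested and 3.57% of all windows. The ETS core CCGGAAG was found in 15 transport genes (33.3%), against 23.0% of genes tested and 10.3% of all windows. The NRF1 site, searched as GCGCA directly followed by TGCGC, was found in 3 (6.67%), namely NUP107, NUP50 and NUP62, against 2.74% of genes tested and 1.24% of all windows. CCAAT was found in 18 (40.0%), against 42.6% of genes tested and 34.6% of all windows. A match is only a description of these letters. By direction of change, the E-box lay in 4 of the 24 matched genes called lower and in 1 of the 7 called higher, and the ETS core in 9 and in 2. The median GC content of the windows was 63.2% in the transport genes and 64.7% in the genes tested.

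The central channel held the widest spread of any subgroup of the pore. NUP54, NUP58 and NUP62 together form the FG-repeat complex that lines the channel. NUP54 (ENSG00000138750, chromosome 4 from 76107562 to 76148485, GENCODE 44 on GRCh38) had 1067 and 1044 normalized counts in sh-NC and 572 and 573 in sh-IRF1. The libraries of each group nearly coincided and the groups lay far apart, with 54.3% of the control level remaining. NUP54 fell by 0.88 on the log2 scale (standard error 0.0775, adjusted p = 2.38e-13 from limma), and the estimate ran from -0.90 to -0.86 with each library left out in turn. Its partner NUP58 (ENSG00000139496) had 7299.5 and 7512 in sh-NC and 5972 and 5875 in sh-IRF1. Both knockdown libraries were again below both controls, and NUP58 fell by 0.32 on the log2 scale (standard error 0.0338, adjusted p = 4.35e-11 from limma).

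NUP62 (ENSG00000213024), the remaining member of the channel complex, moved the other way. It had 3278 and 3454 normalized counts in sh-NC and 4719.9 and 4680.2 in sh-IRF1, both above the controls, a rise to 139.6% of the control level (log2 fold change 0.48, standard error 0.0401, adjusted p = 4.02e-14 from limma). The ratio of NUP62 to NUP54 normalized counts was 3.07 and 3.31 in the sh-NC libraries and 8.25 and 8.16 in the sh-IRF1 libraries. The ratio of NUP62 to NUP58 was 0.449 and 0.460 in sh-NC and 0.790 and 0.797 in sh-IRF1. Both ratios had to separate the groups, because NUP62 lay above both controls and NUP54 and NUP58 lay below both. Not all of these reads can be assigned with certainty, because 20.1% of the exonic bases of NUP62 and 11.7% of those of NUP54 are shared with other genes. On the strand of NUP62, IL4I1 had 451 and 392 normalized counts in sh-NC and 811 and 802 in sh-IRF1. On the opposite strand, ATF5 went from 19053 and 19698 to 13434 and 12941. NUP54 shares its bases with ART3 on the opposite strand, which is not among the deposited genes. Whether counting used the strand is not given in the sources used here. The part of IL4I1 and ATF5 in the NUP62 values, and of ART3 in the NUP54 values, was not tested.

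In the membrane ring, which anchors the pore in the nuclear envelope, each of 3 subunits behaved differently. NUP210 (ENSG00000132182, chromosome 3 from 13316235 to 13420322), a membrane-spanning subunit, had 22349 and 22079 normalized counts in sh-NC and 31449 and 32963 in sh-IRF1. Both knockdown libraries stood above the controls. Its rise, from 22214 ± 191 to 32206 ± 1071 (SD, n = 2 each), far exceeded the spread between libraries (log2 fold change 0.54, standard error 0.0242, adjusted p = 1.90e-23 from limma). Leaving out any 1 library, the estimate stayed between 0.50 and 0.57. NDC1 (ENSG00000058804), another membrane-spanning subunit, had 2877 and 3051 in sh-NC and 2461 and 2432 in sh-IRF1, without overlap. NDC1 fell by 0.28 on the log2 scale (standard error 0.0459, adjusted p = 2.27e-06 from limma). POM121 had no call (log2 fold change 0.01, adjusted p = 0.814 from limma), with 19.0% of its exonic bases shared and a near copy, POM121C, at 5102 to 5894 normalized counts.

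NUP210 carried so many reads that it set the total of the pore genes. It held 22.8% and 22.0% of the summed normalized counts of the pore subunits in the sh-NC libraries and 30.4% and 31.3% in the sh-IRF1 libraries. The pore sum was 97996 and 100272 in sh-NC and 103348 and 105345 in sh-IRF1, or 105% of the control level. Without NUP210 it was 75647 and 78193 in sh-NC and 71899 and 72383 in sh-IRF1, or 93.8%. The direction of the pore sum therefore turned with this gene. The receptor sum was 75028 and 76049 in sh-NC and 64452 and 63849 in sh-IRF1 (84.9%), and that of the Ran system was 22177 and 22049 against 17510 and 17571 (79.3%). All genes of the table summed to 97.0% of the control level, at 18090764 and 18130136 in sh-NC and 17604155 and 17516965 in sh-IRF1. That sum did not overlap between the groups either. None of the 4 sums of transport genes overlapped between the groups, but with 2 libraries each no permutation p below 0.333 is possible.

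**Figure D2:**
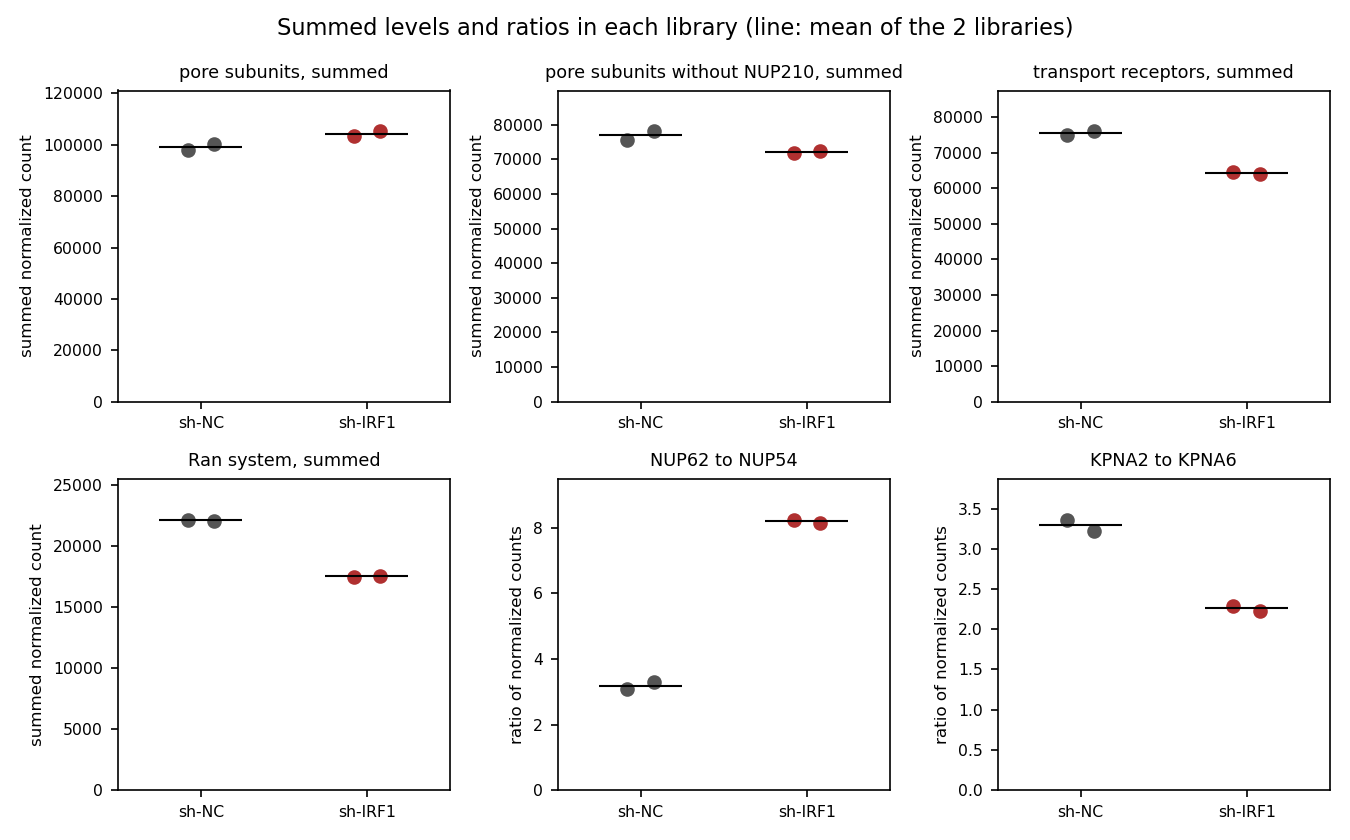
Summed normalized counts of the pore subunits with and without NUP210, of the transport receptors and of the Ran system, and the ratios of NUP62 to NUP54 and of KPNA2 to KPNA6, in each library. Points are libraries, lines are means of 2 libraries and axes start at 0. The pore sum reads 105% of control with NUP210 and 93.8% without it, while the receptor sum reads 84.9% and the Ran sum 79.3%.

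The outer ring, or Y complex, is a scaffold that coats both faces of the pore. Of its 7 members here, 5 were called lower, none was called higher and 2 had no call. SEH1L (ENSG00000085415), which also belongs to the GATOR complex of amino acid signalling, had 2538 and 2685 normalized counts in sh-NC and 1928 and 1868 in sh-IRF1. It lay below the controls in both libraries and fell by 0.46 on the log2 scale (standard error 0.0495, adjusted p = 8.92e-11 from limma). NUP160 fell by 0.34 on the log2 scale. Smaller falls were called for NUP37 (log2 fold change -0.23), NUP43 (-0.17) and NUP107 (-0.16). NUP37 was close to the threshold with an adjusted p of 0.0467 from limma, and edgeR and DESeq2 on the recovered reads did not call it (adjusted p = 0.0535 and 0.115). NUP85 (-0.11) and NUP133 (0.02) had no call.

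The inner ring holds the pore together around the channel, and its members did not share a direction. NUP205 (ENSG00000155561), a large scaffold protein, had 5118 and 5254 normalized counts in sh-NC and 5912 and 5985 in sh-IRF1, with both knockdown libraries above the controls. It rose by 0.20 on the log2 scale (standard error 0.0355, adjusted p = 8.91e-06 from limma). The related scaffold NUP188 was also called higher (log2 fold change 0.13), whereas NUP155 was called lower, with 4907 and 4876 in sh-NC and 4621 and 4427 in sh-IRF1 (log2 fold change -0.11, standard error 0.0377, adjusted p = 0.0132 from limma). NUP93, which binds NUP205 and NUP188, had no call (-0.09). The ratio of NUP205 to NUP93 normalized counts was 2.00 and 1.96 in sh-NC and 2.35 and 2.48 in sh-IRF1. This ratio had to separate the groups, because NUP205 lay above both controls and NUP93 lay below both. NUP35 had the lowest normalized counts of the inner ring and no call (log2 fold change -0.25, adjusted p = 0.0768 from limma).

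At the cytoplasmic face, where messenger RNA leaves the pore, 3 of 7 members were called lower and 1 higher. NUP98 (ENSG00000110713), an FG protein found on both faces, had 5272 and 5383 normalized counts in sh-NC and 4363 and 4394 in sh-IRF1. The groups did not overlap, and NUP98 fell by 0.28 on the log2 scale (standard error 0.0370, adjusted p = 1.32e-08 from limma). RAE1, the mRNA export factor that binds NUP98, fell by 0.36 on the log2 scale. NUP88 fell by 0.34, although 35.5% of its exonic bases are shared with other genes, mostly with RABEP1 on the opposite strand, which went from 2047 and 1979 to 1667 and 1747 normalized counts. NUP214 (ENSG00000126883), the binding partner of NUP88, was called higher, from 2143 and 2116 in sh-NC to 2357 and 2372 in sh-IRF1 (log2 fold change 0.15, standard error 0.0484, adjusted p = 0.00955 from limma). No call was made for NUP42 (-0.18), for RANBP2 (-0.06), the large protein of the cytoplasmic filaments that docks RANGAP1, or for AAAS (0.02). The near copies of RANBP2 in the table, the RGPD genes, were at 5.62 normalized counts or less.

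In the nuclear basket, the fibrous cage on the inner side of the pore, only NUP153 was called. NUP153 (ENSG00000124789) had 3206 and 3321 normalized counts in sh-NC and 2564 and 2516 in sh-IRF1, clearly apart. It fell by 0.36 on the log2 scale (standard error 0.0444, adjusted p = 2.85e-09 from limma), with 10.6% of its exonic bases shared with an antisense RNA at 28.1 to 47.7 normalized counts. TPR, the filament protein of the basket, had no call (-0.06), and neither had NUP50 (-0.05), a cofactor in the recycling of importin alpha.

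**Figure D3:**
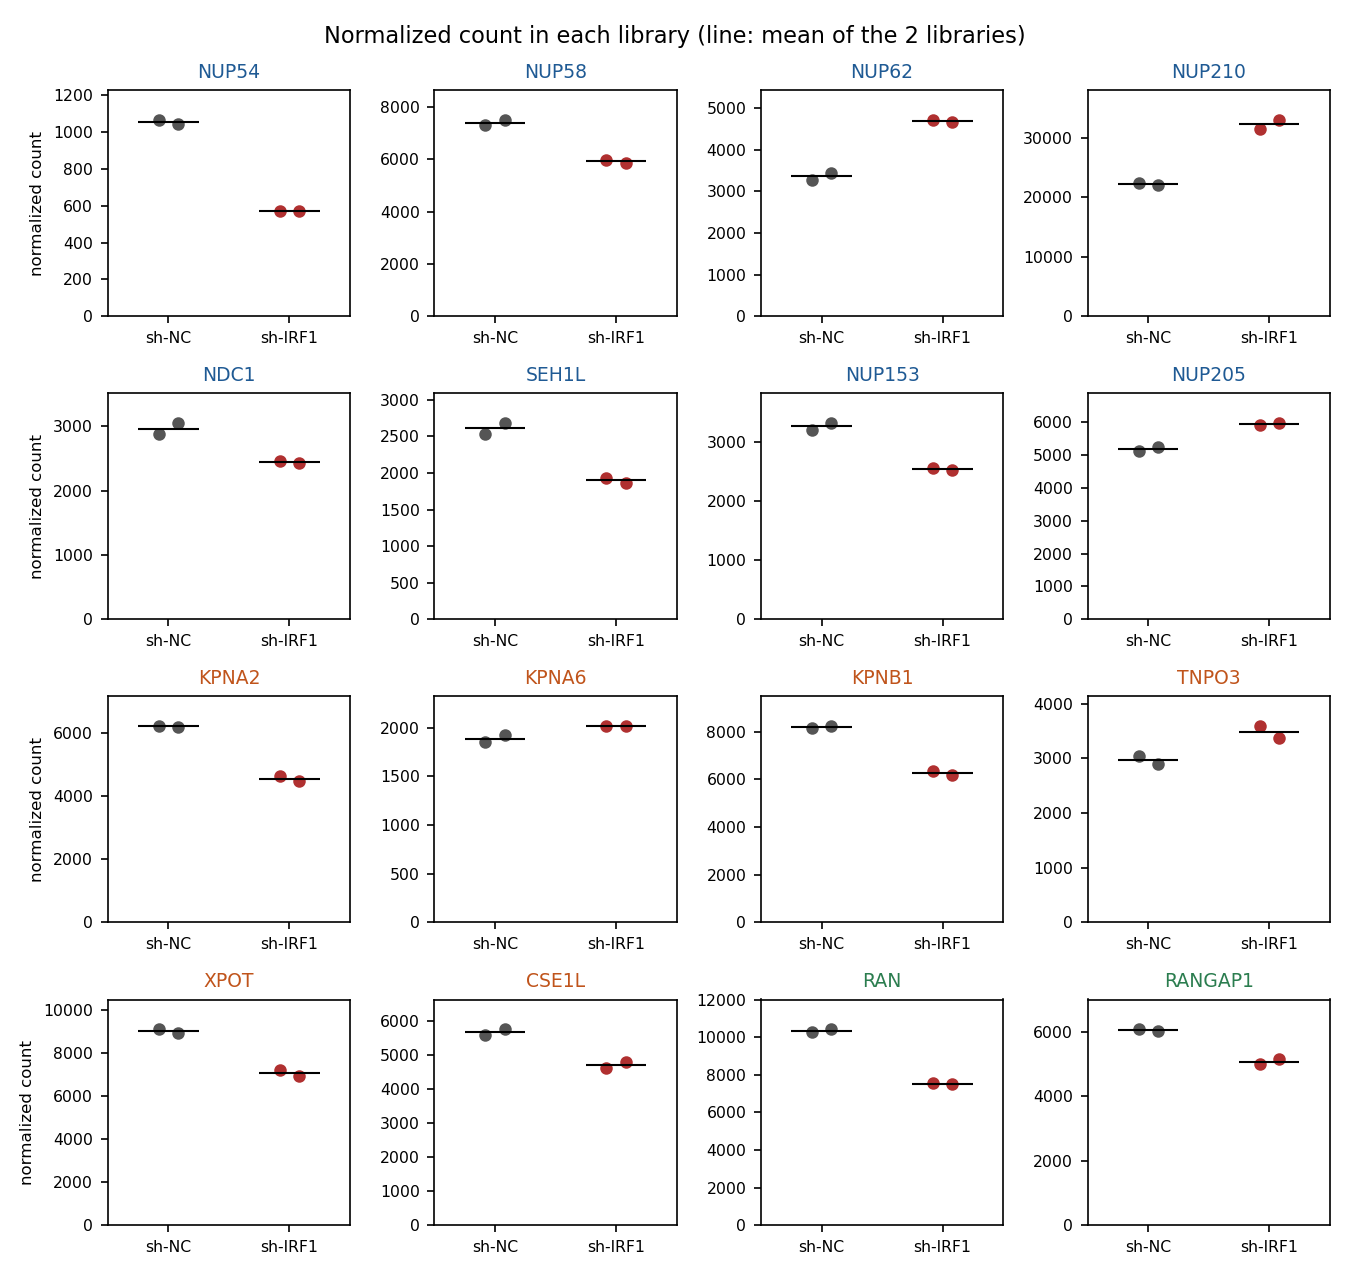
Normalized count of 16 transport genes in each library, with a linear axis from 0 in every panel. Points are libraries and lines are means of 2 libraries, with pore subunits titled in blue, receptors in orange and the Ran system in green. NUP62, NUP210, NUP205 and TNPO3 sit higher in sh-IRF1 and were called, KPNA6 sits higher without a call, and the other 11 sit lower.

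Importin alpha proteins are adaptors that read the classical nuclear localization signal and hand the cargo to importin beta. Of the 5 genes, KPNA2, KPNA3 and KPNA4 were called lower. KPNA2 (ENSG00000182481), an importin alpha known for high levels in proliferating cells, had 6226 and 6201 normalized counts in sh-NC and 4623 and 4483 in sh-IRF1. Both sh-IRF1 libraries lay well below the controls, at 73.3% of the control mean, and KPNA2 fell by 0.45 on the log2 scale (standard error 0.0360, adjusted p = 1.35e-14 from limma). KPNA4 fell by 0.44 on the log2 scale and KPNA3 fell by 0.41. KPNA1 (-0.07) and KPNA6 (0.10, adjusted p = 0.134 from limma) had no call. The ratio of KPNA2 to KPNA6 normalized counts was 3.36 and 3.22 in sh-NC and 2.29 and 2.22 in sh-IRF1. It had to separate the groups, because KPNA2 lay below both controls and KPNA6 lay above both.

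The importin beta family carries cargo into the nucleus either directly or through importin alpha. KPNB1 (ENSG00000108424), importin beta itself, had 8162 and 8244 normalized counts in sh-NC and 6370.1 and 6176 in sh-IRF1. Both knockdown libraries were lower, and KPNB1 fell by 0.39 on the log2 scale (standard error 0.0330, adjusted p = 8.87e-14 from limma). The ratio of KPNA2 to KPNB1 was 0.763 and 0.752 in sh-NC and 0.726 in both sh-IRF1 libraries. This shift had to be smaller than that of KPNA2 to KPNA6, because KPNB1 fell with KPNA2 and KPNA6 did not fall. TNPO1, which imports RNA-binding proteins, fell by 0.33 on the log2 scale. IPO8 fell by 0.25 and IPO5, an importer of ribosomal proteins and histones, fell by 0.19. IPO7 (log2 fold change -0.09) just missed the threshold with an adjusted p of 0.0532 from limma.

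Against these, TNPO3 and IPO9 were called higher. TNPO3 (ENSG00000064419), the importer of serine- and arginine-rich splicing factors, had 3048 and 2889 normalized counts in sh-NC and 3594 and 3376 in sh-IRF1. The groups did not overlap, and TNPO3 rose by 0.23 on the log2 scale (standard error 0.0440, adjusted p = 2.42e-05 from limma). The ratio of TNPO3 to TNPO1 was 0.659 and 0.597 in sh-NC and 0.956 and 0.900 in sh-IRF1. It too had to separate the groups, since TNPO3 lay above both controls and TNPO1 lay below both. IPO9 was higher by 0.12 on the log2 scale (adjusted p = 0.0323 from limma), a call that DESeq2 on the recovered reads did not make (adjusted p = 0.0704). IPO4 was not tested. It had 9.23 and 8.22 normalized counts in sh-NC and 6.96 and 12.2 in sh-IRF1, which came from 9, 8, 7 and 13 reads. Another annotated gene on the same strand covers 68.7% of its exonic bases, so this value says little about the level of IPO4.

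All 5 exportins were called lower, with log2 fold changes from -0.42 to -0.13. XPOT (ENSG00000184575), which exports transfer RNA, had 9138 and 8955 normalized counts in sh-NC and 7229 and 6941 in sh-IRF1. The groups were separate, and XPOT fell by 0.35 on the log2 scale (standard error 0.0324, adjusted p = 8.37e-13 from limma). XPO5, which exports precursors of microRNA, showed the largest change of the 5 and fell by 0.42 on the log2 scale. CSE1L (ENSG00000124207), which returns importin alpha to the cytoplasm and had the highest level per length of the receptors, had 5563 and 5754 in sh-NC and 4621 and 4786 in sh-IRF1. It fell by 0.27 on the log2 scale (standard error 0.0368, adjusted p = 4.67e-08 from limma). XPO1, the exporter of proteins with a leucine-rich export signal and the target of selinexor, fell by 0.21, from 9007 and 9041 normalized counts to 7818 and 7805. XPO7 fell by 0.13 on the log2 scale.

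The 4 genes of the Ran system on the list were called lower without exception. RAN (ENSG00000132341, chromosome 12 from 130872037 to 130877678), the GTPase itself, had 10254 and 10440 normalized counts in sh-NC and 7573 and 7498 in sh-IRF1. The libraries of each group lay close together and the groups far apart, at 72.8% of the control level. RAN fell by 0.46 on the log2 scale (standard error 0.0309, adjusted p = 4.05e-17 from limma), the smallest p of the 29 genes called lower, and its 3 named pseudogenes in the table held 1.02% of its own reads. RANGAP1, which makes Ran hydrolyse GTP in the cytoplasm, fell by 0.26. RCC1, which loads Ran with GTP on chromatin, fell by 0.25. RANBP1, which helps RANGAP1 take Ran off export complexes, fell by 0.17, with 11.2% of its exonic bases shared.

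Levels can be compared between genes only per length, here as normalized counts per kilobase of exon in the sh-NC libraries. RAN was the highest with 2217, ahead of NUP210 with 1667, CSE1L with 1489, XPOT with 1236 and RANGAP1 with 989. In the sh-IRF1 libraries this order changed at the top, since NUP210 stood at 2417 per kilobase and RAN at 1615. KPNA2 with 844 and KPNB1 with 796 were also among the highest in sh-NC. At the low end stood NUP214 with 86.1, NUP42 with 80.4 and NUP54 with 67.8 per kilobase. The exonic length counts every annotated exon, so genes with many rarely used exons come out low. Across the 49 genes tested, the log2 fold change had a Pearson correlation of 0.15 with the level per length and of 0.03 with exonic length (Spearman 0.005 and 0.02), given as a description, since these genes share the same 4 libraries.

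**Figure D4:**
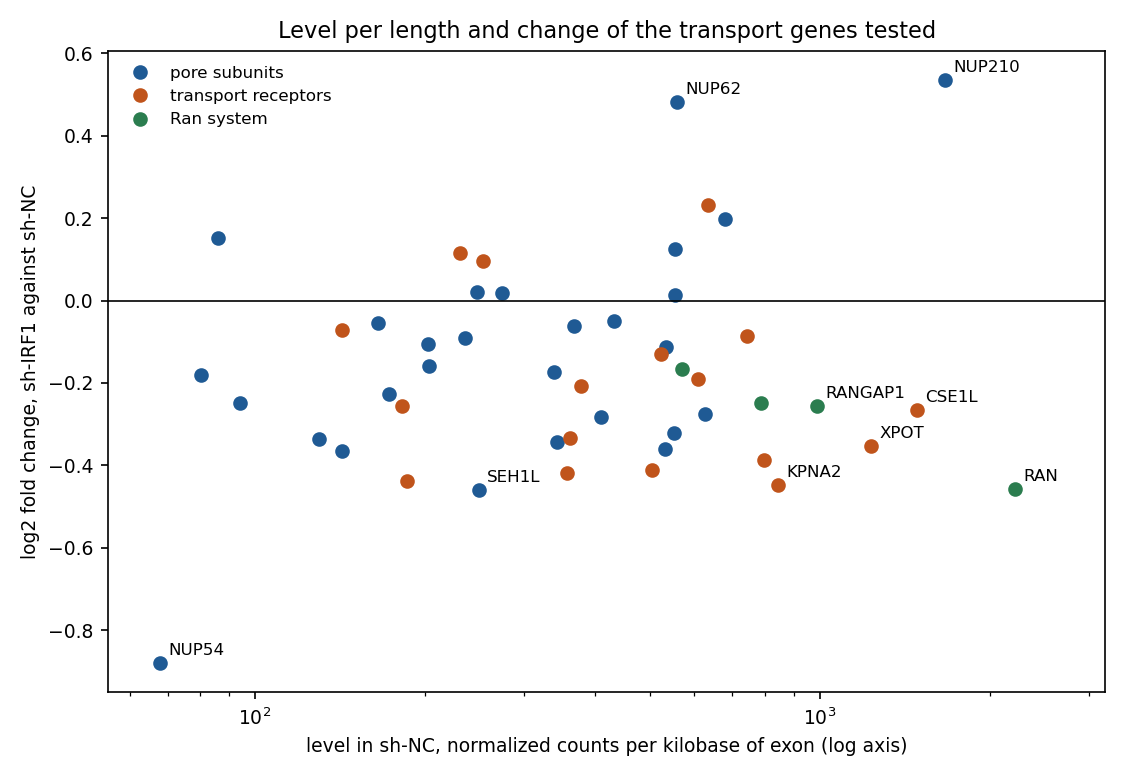
Level per length in sh-NC (normalized counts per kilobase of exon, log axis) against the log2 fold change in sh-IRF1 relative to sh-NC, for the 49 transport genes tested. Each point is a gene, colored by role, and the horizontal line marks no change. RAN at 2217 and NUP210 at 1667 per kilobase, the genes with the highest levels, lie at -0.46 and 0.54.

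Other genes of the pore and of nuclear transport, which were not on the list of 50, were counted in the same way. Of 25 such genes found among the deposited genes, 22 were tested, 4 were called lower (AHCTF1, PCID2, XPO4 and XPO6), 3 were called higher (POM121C, RANBP3 and TNPO2) and 15 had no call. These are 18.2% lower and 13.6% higher, against 21.9% and 20.3% of all genes tested, with a median log2 fold change of -0.04. Of the 13 at a mean of at least 1000 normalized counts, 3 were called lower and 3 higher, against 38.6% and 28.1% of all genes at that level. By role, 2 of the 7 other receptors tested were called lower and 1 higher, with a median log2 fold change of -0.10. Of 11 other Ran and mRNA export factors, 1 was called lower and 1 higher, with a median of 0.034. Of 4 other pore subunits, 1 was called lower and 1 higher, with a median of 0.033. The receptors and the Ran system on the list were thus more often lower than these. With so few genes these counts do not set the group apart. The calls of POM121C and RANBP3 were lost when a library was left out (highest adjusted p = 0.576 and 0.145 from limma), with the log2 fold change of POM121C between 0.03 and 0.18, and DESeq2 on the recovered reads did not call POM121C (adjusted p = 0.0747). The levels of these 22 genes are lower, with a median of 1185 normalized counts in sh-NC against 3032 for the transport genes above, and the difference in shares was not tested. XPO4, an exportin, had 4415 and 4704 normalized counts in sh-NC and 2951 and 2899 in sh-IRF1, so it joined the exportins above in being lower in both libraries. XPO4 fell by 0.64 on the log2 scale (standard error 0.0416, adjusted p = 1.10e-17 from limma). TNPO2, the close relative of TNPO1, went from 2547 and 2617 to 3033 and 3107 (log2 fold change 0.25, standard error 0.0446, adjusted p = 8.49e-06 from limma), opposite to TNPO1. MYC, named here because the E-box is its motif, had 14198 and 14561 in sh-NC and 7379.7 and 7348 in sh-IRF1 (log2 fold change -0.97, adjusted p = 1.03e-29 from limma), and its part in the values of the transport genes was not tested.

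Calls on the transport genes held under most ways of treating the values. How many of all called genes kept their calls was not counted, so this is not read as a trait of the transport genes. Of the 29 genes called lower, 23 kept the call under all 15 alternatives, and the exceptions were NUP37, NUP43, NUP107, NUP155, XPO7 and RANBP1. Of the 7 called higher, NUP62, NUP205, NUP210 and TNPO3 kept it, while NUP188, NUP214 and IPO9 did not. Without the sh-IRF1 library of replicate 2 the transport genes called higher came to 4 and those of the pore to 3, and the receptors called higher came to 1. The receptors called higher also came to 1 without sh-NC replicate 1 or sh-IRF1 replicate 1. The transport genes lower beyond 0.5 came to 2 without sh-NC replicate 1, and those higher beyond 0.5 came to 2 without sh-NC replicate 2. Leaving out the members whose reads are uncertain, by shared exonic bases or by named pseudogenes, left 34 genes, of which 20 were called lower and 6 higher.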

How the data were processed

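RNA was sequenced from 2 sh-NC and 2 sh-IRF1 libraries of MV4-11 cells, with groups and replicate numbers taken from the sample labels. The submitters' processing notes name HISAT2 (2.0.5) and hg38, and the counting tool and the use of strand are not given in the sources used here. The values the authors deposited are a normalized signal, in which every library's reads were scaled by 1 size factor of that library. All values were whole multiples of a library's step (100% within 0.001 of a read), from which reads were recovered. The table held 0 other columns of per-sample values. Symbols were matched for 23456 of 23622 identifiers. GENCODE 44 (GRCh38) gave positions, exonic lengths and overlaps. A gene's reads counted as uncertain if more than 10% of its exonic bases also belong to a gene on the same or the opposite strand, or if a pseudogene named after it is in the table.

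limma (3.58.1, R 4.3.3, with a variance trend and robust shrinkage) was run on log2(value + 1) over 14120 genes, with Benjamini-Hochberg adjustment over all of them. edgeR (4.0.16) and DESeq2 (1.42.0) were run on the recovered reads as alternatives. Scripts were tested on simulated data. Other alternatives were TMM, upper-quartile and total-read scaling, pseudocounts of 0.5 and 5, no filter, a filter at 50, no robust shrinkage, a replicate block and each library left out. Every transport gene is named. Values in every library are given for genes beyond a log2 fold change of 0.5, for each subgroup's gene of smallest p among those lower and among those higher, for the highest level per length of each role, for IRF1 and MYC, and for the other transport genes with the smallest p, and other per-library values (NUP58, XPO1, IPO4 and neighbouring genes) were added after they were seen. The members, the subgroups and the lists were chosen with earlier results of these data known. Replicate libraries differed by more than counting noise (chi-square per gene 2.52 between the sh-NC and 2.37 between the sh-IRF1 libraries).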

Additional observations from a re-analysis of the deposited data

How the results depend on the processing

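IPO4 did not pass the filter on low values. NUP35 and NUP42, at 349 and 313 normalized counts, had the largest standard errors of the transport genes tested (0.115 and 0.121 on the log2 scale). With 2 libraries per group the spread of a single gene is poorly known. Same-numbered libraries showed no shared shift over all genes tested, as their deviations had a correlation of -0.0154. With 2 libraries per group this cannot show whether they were handled together. With the replicate as a block, 30 transport genes were called lower and 7 higher, as IPO7 joined, and no other call on a transport gene changed. edgeR called 28 lower and 7 higher, and DESeq2 26 and 6. Over all genes, edgeR called 3038 lower and 2910 higher, and DESeq2 2605 and 2312, so calls were fewer in DESeq2 over all genes too. With total-read scaling 24 transport genes were called lower and 8 higher (9 and 5 in the pore, 11 and 3 among the receptors), while over all genes 2647 were lower and 3428 higher, against 3092 and 2861 as reported, and the median of pore subunits was -0.092 on the log2 scale, the median of transport receptors -0.21 and the median of Ran system genes -0.21, and 2 transport genes were higher beyond 0.5. The receptor median was -0.23 without a filter and -0.23 in DESeq2, which called 1 receptor higher. Without genes of uncertain reads 0 were lower beyond 0.5, as NUP54 left the list. The 2 Ran system genes that remained, RANGAP1 and RCC1, were both called lower. When the libraries were left out 1 at a time, the transport genes called lower ran from 24 to 29 and higher from 4 to 7, with 1 to 2 lower and 1 to 2 higher beyond 0.5. The pore ran from 10 to 13 lower and 3 to 5 higher, with a median from -0.17 to -0.11. The receptors ran from 11 to 13 lower and 1 to 2 higher, with a median from -0.25 to -0.22, and the Ran system from 3 to 4 lower, with a median from -0.26 to -0.24. Among genes with no call the direction turned for KPNA1 (-0.15 to 0.011, above 0 without sh-NC replicate 2), NUP50 (-0.13 to 0.033, above 0 without sh-IRF1 replicate 1), NUP85 (-0.22 to 0.0044, above 0 without sh-NC replicate 2) and POM121 (-0.024 to 0.049, below 0 without sh-NC replicate 1). Over all alternatives, 30 values of single called genes lost the call without a change of direction. The cause of these shifts was not tested.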
